A study of Homo sapiens with 4 samples.

Results

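The genes described here are 45 interferon-stimulated genes, a list of gene symbols drawn up with earlier results of these data known, of which 39 had a row among the 13165 genes of the expression table. TRIM and MHC genes were left out of the choice. RNA was sequenced from TPC1, an established line of human papillary thyroid cancer cells, both in cells stably carrying the empty vector (TPC1-Vector) and in cells stably expressing INAVA (TPC1-INAVA), a gene that the labels and the table call C1orf106. Both groups were grown in DMEM with fetal bovine serum and were selected with puromycin, so the control cells also carried the vector and the resistance gene. The labels name no treatment with an interferon or an inducer of one, and do not say whether the stable lines were clones or pools. There were 2 libraries in each group, but the table holds 1 value per gene and group in FPKM, the fragments of a gene per kilobase of its length, scaled to the depth of the library. The difference between groups is therefore given as TPC1-INAVA minus TPC1-Vector on the log2(FPKM + 0.5) scale, without an SD or a p-value, and it has no replicate check.

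Interferons are secreted proteins that signal through cell surface receptors and Janus kinases to STAT proteins. In the response to type I and type III interferons, STAT2 acts in a complex with IRF9 that binds the interferon-stimulated response element in the promoters of target genes. The target genes encode sensors of foreign RNA, enzymes that destroy or edit it, proteins that block virus entry or translation, and the factors of the response itself. Many of them are also transcribed at a low level without an added interferon.

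INAVA, which was used to check the labels, was at 7.96 FPKM in TPC1-Vector against 123 FPKM in TPC1-INAVA, a log2 difference of 3.86. Over the 12305 genes averaging 0.5 FPKM or more over the groups, the median log2 difference was 0.0033. Of the thyroid follicular markers, PAX8 (60.1 and 55.7 FPKM in TPC1-Vector and TPC1-INAVA) and FOXE1 (5.26 and 5.89 FPKM) were listed, whereas TG, TSHR, NKX2-1 and SLC5A5 had no row. Of 8 leukocyte markers, 3 were listed and PTPRC had no row. Their summed level was 6.95 FPKM in TPC1-Vector against 9.85 FPKM in TPC1-INAVA, most of it CD68, and its part in the results was not tested. Of 6 epithelial markers 3 were listed (summed 166 and 224 FPKM). KRT18 was at 140 and 212 FPKM, KRT8 at 23.4 and 10.5 FPKM (-1.12) and KRT7 at 1.97 and 2.01 FPKM, and KRT8 and KRT18 share 1 listed position. Of 5 fibroblast markers 2 were listed (1.32 and 0.795 FPKM), and none of 4 endothelial markers had a row. In bulk RNA, fewer cells expressing a gene and less RNA of that gene per cell cannot be told apart.

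The response element has a recognisable core, which was looked for in the promoters of the chosen genes. RefSeq promoter windows, from 250 bases before to 50 bases after a transcript's start on GRCh38.p14, were found for 37 of the 45 genes. None was matched for IRF7, IFIT2, OAS2, OASL, USP18, IFITM2, MX2 and GBP2. The core GAAANNGAAA, read on both strands in every window of a gene, was present in 23 of the 37 genes (62.2%) and in 1195 of all 27305 genes with a window (4.38%). The longer form GAAACNGAAAC, each match of which is also a match of the shorter core, was present in 13 of the 37 (35.1%) and in 0.293% of all genes. The core of the gamma-activated site, TTCNNNGAA, was present in 10 of the 37 (27%) and in 9.38% of all genes.

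The stretches printed here run 170 bases, from position -160 to position 10 around the start of transcription, and are written 5′ to 3′ on the strand of the gene with each core in capitals. A core on the opposite strand reads TTTC, any 2 bases and TTTC. The first 5 belong to the IFIT genes and to the neighbouring pair DTX3L and PARP14, the groups of genes that were lower in TPC1-INAVA. ISG15 and IFI6 are shown as genes with the same core that were higher and nearly equal. IFIT1 is at chr10:89392463-89392632 (forward strand), IFIT3 at chr10:89327837-89328006 (forward strand), IFIT5 at chr10:89414408-89414577 (forward strand), DTX3L at chr3:122564178-122564347 (forward strand), PARP14 at chr3:122680679-122680848 (forward strand), ISG15 at chr1:1013337-1013506 (forward strand) and IFI6 at chr1:27672183-27672352 (reverse strand).
IFIT1: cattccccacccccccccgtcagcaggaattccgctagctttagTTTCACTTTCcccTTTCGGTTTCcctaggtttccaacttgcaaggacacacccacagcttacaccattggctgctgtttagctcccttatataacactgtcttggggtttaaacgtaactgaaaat
IFIT3: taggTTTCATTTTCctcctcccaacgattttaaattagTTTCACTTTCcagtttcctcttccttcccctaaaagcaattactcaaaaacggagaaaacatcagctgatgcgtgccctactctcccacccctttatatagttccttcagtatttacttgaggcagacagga
IFIT5: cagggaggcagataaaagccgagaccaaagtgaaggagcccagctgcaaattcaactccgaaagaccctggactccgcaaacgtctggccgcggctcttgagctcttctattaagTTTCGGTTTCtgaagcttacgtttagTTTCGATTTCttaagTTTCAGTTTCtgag
DTX3L: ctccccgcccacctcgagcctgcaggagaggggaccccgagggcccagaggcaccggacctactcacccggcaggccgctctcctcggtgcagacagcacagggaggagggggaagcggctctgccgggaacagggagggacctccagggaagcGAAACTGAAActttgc
PARP14: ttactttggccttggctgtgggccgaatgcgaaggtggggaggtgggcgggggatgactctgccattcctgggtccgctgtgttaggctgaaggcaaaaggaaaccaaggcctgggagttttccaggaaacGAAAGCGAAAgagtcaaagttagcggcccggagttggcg
ISG15: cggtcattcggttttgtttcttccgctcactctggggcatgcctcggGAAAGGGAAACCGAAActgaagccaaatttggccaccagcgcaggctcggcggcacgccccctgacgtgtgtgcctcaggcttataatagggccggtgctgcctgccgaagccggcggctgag
IFI6: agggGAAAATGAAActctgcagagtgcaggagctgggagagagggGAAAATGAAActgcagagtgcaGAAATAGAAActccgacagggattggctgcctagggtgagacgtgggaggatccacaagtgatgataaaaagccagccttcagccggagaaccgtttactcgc

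The stretches of IFIT1 and IFIT3 each held 2 cores on the opposite strand, at -116 to -107 and -103 to -94 in IFIT1 and at -156 to -147 and -122 to -113 in IFIT3, counted from the start of transcription. IFIT5 held 3 cores, the last of which reached across the start. In ISG15 the 2 cores overlapped, at -113 to -104 and -107 to -98, and IFI6 held 3. DTX3L had a single core at -6 to 4. The DTX3L window and the second window of PARP9, which is read in the other direction, shared 137 bases. The single core of DTX3L (chromosome 3, 122564332 to 122564341) was thus also the core of that PARP9 window, at -41 to -32. PARP14 had 1 core at -29 to -20 and, before it, a TTCNNNGAA match at -40 to -32.

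The chosen genes were transcribed in TPC1 cells of both groups over a wide range of levels. Of the 39 listed, 14 were at 10 FPKM or more in TPC1-Vector, 18 were between 1 and 10 FPKM and 7 were under 1 FPKM, and 32 were at 1 FPKM or more in both groups. The median gene of the table was at 10.0 FPKM in both groups, and 14 of the chosen genes were above it in TPC1-Vector. IFITM3 (137 and 152 FPKM in TPC1-Vector and TPC1-INAVA), ADAR (74.3 and 69.1 FPKM) and IFITM2 (43.0 and 45.5 FPKM) were the most abundant, in the same order in both groups. BST2, IFI44L, IFITM1, MX2, RSAD2 and XAF1 had no row. Every row had at least 0.278 FPKM in the higher of its groups, and whether the 6 genes were under that level is not known.

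**Figure D1:**
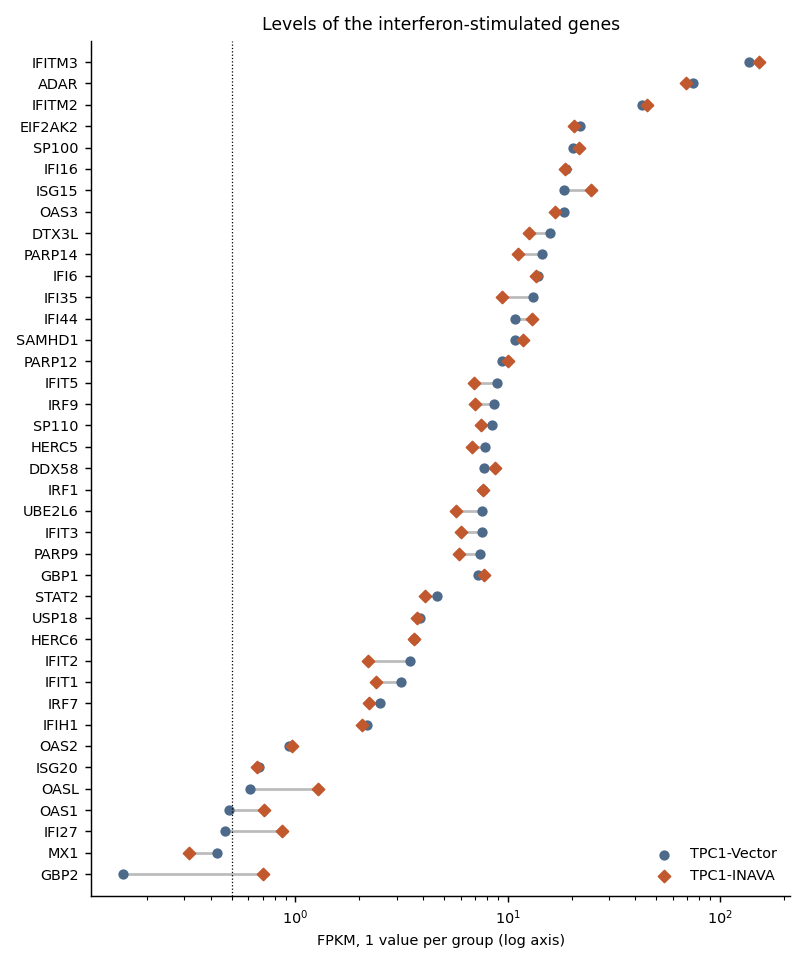
FPKM of the 39 listed interferon-stimulated genes in TPC1-Vector and TPC1-INAVA on a log axis, ordered by their level in TPC1-Vector; each point (circle for TPC1-Vector, diamond for TPC1-INAVA) is the authors' value for a group of 2 libraries, and the dotted line is at 0.5 FPKM. Levels run from IFITM3 (137 and 152 FPKM) down to GBP2 (0.154 and 0.706 FPKM), and the paired points lie close together for most genes above 10 FPKM.

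Across the 37 genes kept by that filter on the mean, 15 were higher and 22 were lower in TPC1-INAVA. Of all 12305 genes kept by it, 6256 were higher and 6049 were lower. The median log2 difference was -0.05 for the chosen genes beside 0.0033 for all genes (-0.096 and 0.0027 for genes averaging 1 FPKM or more). Past 1.5-fold, 1 was higher (2.70%), OASL, and none was lower, beside 2.24% of all genes that were higher and 1.45% that were lower. Past 0.32 on the log2 scale (a ratio of 5 to 4), 3 were higher (8.11%, beside 7.69% of all genes), namely OASL, IFI27 and ISG15. IFI27 (0.466 FPKM in TPC1-Vector, 0.862 FPKM in TPC1-INAVA) reached the filter's mean only through TPC1-INAVA, as did OAS1 (0.485 and 0.711 FPKM). Both are among the 15 higher genes, and their being counted there depends on that filter. At the same threshold, 7 were lower (18.9%, beside 6.74% of all genes), namely IFIT1, IFIT2, IFIT5, UBE2L6, PARP14, DTX3L and IFI35. Of these, IFIT1, IFIT2 and IFIT5 lie close together on chromosome 10, where the genes around them were lower as well. DTX3L and PARP14 lie close together on chromosome 3, so the 7 are not independent values. The range from the 5th to the 95th percentile of all genes was -0.38 to 0.40. IFIT2, IFI35 and UBE2L6 were below it, and OASL, IFI27 and ISG15 were above it. The median size of a difference, whatever its direction, was 0.16 for the chosen genes and 0.12 for all genes.

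**Figure D2:**
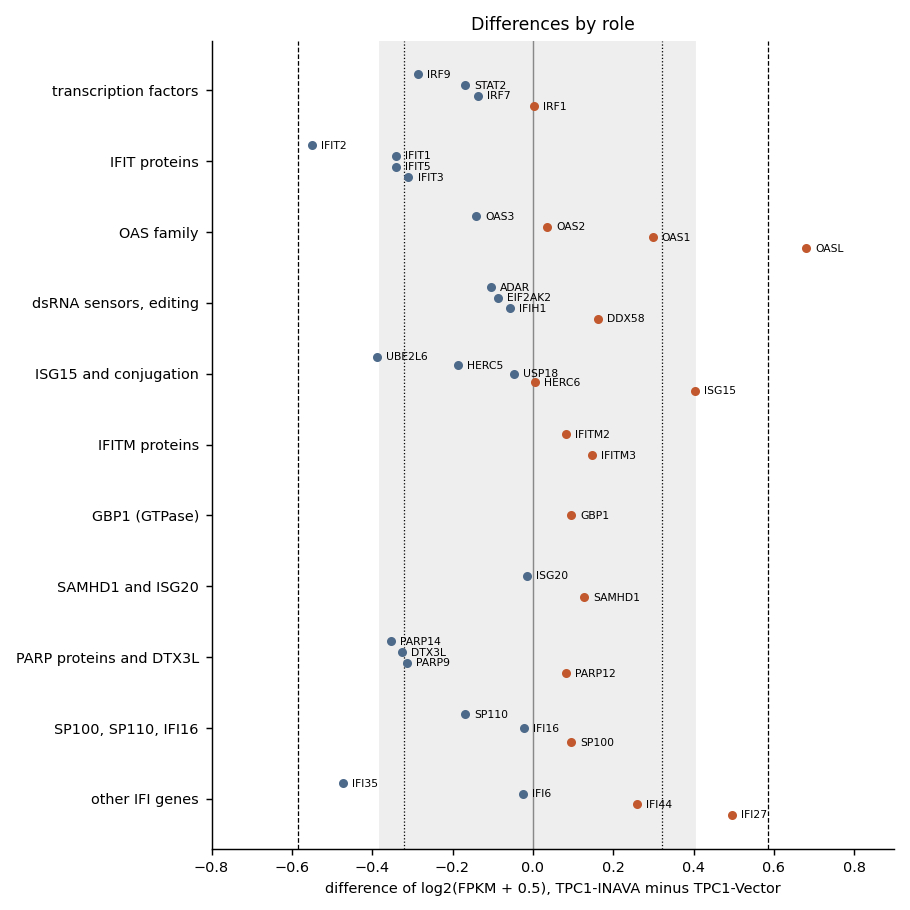
Difference of log2(FPKM + 0.5), TPC1-INAVA minus TPC1-Vector, for each of the 37 genes kept by the filter, by role; blue points are lower and orange points higher in TPC1-INAVA. The shaded band is the 5th to 95th percentile of all genes (-0.38 to 0.40), dotted lines mark 0.32 and dashed lines 1.5-fold. The IFIT proteins, PARP9, PARP14 and DTX3L lie to the left of 0, and only OASL lies past a dashed line.

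The factors that drive the response were lower in TPC1-INAVA except for IRF1, each by less than 0.32, with a median log2 difference of -0.15. IRF9, the DNA-binding subunit of the STAT complex, was at 8.62 FPKM in TPC1-Vector against 6.98 FPKM in TPC1-INAVA (-0.29). STAT2, its partner, was at 4.63 and 4.06 FPKM (-0.17). IRF7, which amplifies transcription of type I interferon genes, was at 2.50 and 2.23 FPKM (-0.14) and is listed on an alternate contig of chromosome 11. IRF1, which also serves the response to interferon gamma, was at 7.67 and 7.69 FPKM (0.0022).

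The 4 IFIT genes, whose products bind foreign RNA and restrain its translation, were all lower in TPC1-INAVA, with a median log2 difference of -0.34. IFIT2 differed the most, at 3.45 FPKM in TPC1-Vector against 2.20 FPKM in TPC1-INAVA (-0.55, 1.46-fold lower). IFIT1 was at 3.16 and 2.39 FPKM (-0.34) and IFIT5 at 8.93 and 6.94 FPKM (-0.34). IFIT3, which stabilises IFIT1 on RNA, was at 7.56 and 6.01 FPKM (-0.31). IFIT1, IFIT3 and IFIT5 thus lay within a narrow range of differences, and IFIT2 lay below it. Without a pseudocount, the ratio for IFIT2 was 1.57-fold lower, past the 1.5-fold line.

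The IFIT genes lie side by side on chromosome 10 (89301949 to 89421002, GRCh38), and the genes around them were lower as well. Of 14 other genes averaging 1 FPKM or more within 2 Mb of IFIT2, 12 were lower, with a median log2 difference of -0.24. Relative to that median, IFIT2 was at -0.31, IFIT1 and IFIT5 at -0.10 and IFIT3 at -0.07. Within 5 Mb of IFIT2, 32 of 35 genes were lower, with a median of -0.37, and IFIT1, IFIT3 and IFIT5 were then at 0.02, 0.06 and 0.02 relative to their neighbours. IFIT2 was below its neighbours at every distance, by 0.40 within 1 Mb, 0.31 within 2 Mb and 0.18 within 5 Mb. The share of the neighbours in the IFIT difference was not tested.

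The OAS family, enzymes that activate the RNA-degrading RNase L when they meet double-stranded RNA, differed in both directions, with a median log2 difference of 0.17. The median was -0.14 when genes averaging under 1 FPKM were left out, because OAS3 alone remained. OASL, a family member without that enzyme activity, was at 0.613 FPKM in TPC1-Vector against 1.28 FPKM in TPC1-INAVA, a log2 difference of 0.68, and a ratio of 2.09 without a pseudocount. It was the only chosen gene kept by the filter past 1.5-fold. OASL did not pass with a pseudocount of 1, and with a pseudocount of 0.1 IFI27 passed as well, and IFIT2 in the lower direction. OASL is on chromosome 12 (121020292 to 121039242), where 47 neighbours within 2 Mb had a median of 0.0003. OAS1, at 0.485 and 0.711 FPKM (0.30), and OAS2, at 0.930 and 0.966 FPKM (0.04), were both under 1 FPKM. OAS3, the family's most abundant member here, was lower, at 18.4 and 16.6 FPKM (-0.14). OAS1, OAS2 and OAS3 are adjacent on chromosome 12 (112906934 to 113011723), where neighbours of OAS3 had a median of 0.08.

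Low levels bear on these values. Of all genes averaging 0.5 to 1 FPKM, 9.06% were past 1.5-fold in either direction, beside 6.24% at 1 to 5 FPKM and 2.31% at 5 FPKM or more. OASL was 1 of 5 chosen genes in the lowest of these ranges, and none of the 7 and 25 in the other ranges was past 1.5-fold. From the lowest range to the highest, the chosen genes had median log2 differences of 0.30, -0.14 and -0.09. The medians of all genes in these ranges were 0.01, -0.01 and 0.0044.

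Sensors and editors of double-stranded RNA differed little. DDX58, which encodes the cytosolic RNA sensor RIG-I, was at 7.75 and 8.73 FPKM in TPC1-Vector and TPC1-INAVA (0.16). IFIH1, its relative for long double-stranded RNA, was at 2.16 and 2.06 FPKM (-0.06). EIF2AK2, the kinase PKR that stops translation, was at 21.8 and 20.5 FPKM (-0.09), and ADAR, which edits adenosine in double-stranded RNA, was at 74.3 and 69.1 FPKM (-0.11). All 4 lay well inside the range between the 5th and 95th percentiles of all genes.

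Of ISG15 and the enzymes of its pathway, 2 were higher and 3 lower, and ISG15 and UBE2L6 alone were past 0.32, in opposite directions. ISG15, a ubiquitin-like protein that is attached to other proteins, was at 18.4 FPKM in TPC1-Vector against 24.6 FPKM in TPC1-INAVA, a log2 difference of 0.40. UBE2L6, the enzyme that conjugates it, was lower, at 7.60 and 5.69 FPKM (-0.39). HERC5, its main ligase, was at 7.79 and 6.78 FPKM (-0.19). The related HERC6 was at 3.61 and 3.63 FPKM (0.01), and USP18, which removes ISG15 and dampens receptor signalling, was at 3.88 and 3.74 FPKM (-0.05). The 37 neighbours of ISG15 at the end of chromosome 1 had a median of 0.11, and 8 of them were lower. Relative to their neighbours within 2 Mb, ISG15 was at 0.29 and UBE2L6, on chromosome 11, at -0.34.

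Restriction factors of the membrane were slightly higher. IFITM3, which blocks virus entry from endosomes, was at 137 and 152 FPKM (0.15), and IFITM2 was at 43.0 and 45.5 FPKM (0.08). They lie close together on chromosome 11 (308107 to 320914), where 24 neighbours had a median of 0.18, above both. Their sequences are nearly alike, so reads may be divided uncertainly between them. GBP1, a guanylate-binding GTPase induced by interferon gamma, was at 7.22 and 7.75 FPKM (0.09). Its relative GBP2 was at 0.154 and 0.706 FPKM and MX1, a dynamin-like antiviral GTPase, at 0.429 and 0.316 FPKM. GBP2 and MX1 both had means under 0.5 FPKM and are in no count of genes kept by the filter.

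SAMHD1, which depletes the nucleotides that reverse transcription needs, was at 10.8 and 11.8 FPKM (0.13). ISG20, an RNA exonuclease, was at 0.670 and 0.658 FPKM (-0.02). SP100, a component of nuclear bodies, was at 20.2 and 21.6 FPKM (0.09), and its neighbour and relative SP110 at 8.47 and 7.48 FPKM (-0.17). IFI16, a nuclear sensor of DNA, was at 18.9 and 18.6 FPKM (-0.02). None of these genes reached 0.32 in either direction.

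PARP9, PARP14 and DTX3L were lower together. PARP9 and DTX3L form a complex that joins ADP-ribosylation to ubiquitin ligation, and PARP14 is a further ADP-ribosyltransferase. DTX3L was at 15.8 FPKM in TPC1-Vector against 12.5 FPKM in TPC1-INAVA (-0.33), PARP9 at 7.41 and 5.86 FPKM (-0.31) and PARP14 at 14.5 and 11.2 FPKM (-0.35). The ratios of PARP9 and DTX3L were both 0.791. PARP9 and DTX3L share 1 listed position, and the DTX3L window overlaps the second PARP9 window only, so they are not treated as independent values. Whether fragments were divided between them was not tested. PARP12, a family member on chromosome 7, was at 9.42 and 10.0 FPKM (0.08).

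In contrast to the IFIT genes, the neighbours of PARP9, PARP14 and DTX3L on chromosome 3 (122527911 to 122730840) were not lower. Of 22 neighbours of DTX3L within 2 Mb, 10 were lower, with a median of 0.04. Relative to their neighbours, PARP9 was at -0.36, DTX3L at -0.37 and PARP14 at -0.39. All 3 were below their neighbours at each distance: DTX3L was at -0.48 within 1 Mb and at -0.33 within 5 Mb, and PARP14 at -0.50 and -0.35.

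The other chosen genes, grouped only by the interferon-inducible name, went in both directions. IFI35 was lower, at 13.2 FPKM in TPC1-Vector against 9.36 FPKM in TPC1-INAVA (-0.47, 1.39-fold lower), and its 69 neighbours on chromosome 17 had a median of -0.01. IFI44 was at 10.8 and 13.0 FPKM (0.26). IFI6, a protein of the endoplasmic reticulum and mitochondria, was at 13.9 and 13.6 FPKM (-0.03). IFI27 was at 0.466 and 0.862 FPKM (0.50), a low level, and is listed on an alternate contig of chromosome 14. IFI6 and ISG15 each held more than 1 core in the stretches printed above, and their log2 differences were -0.03 and 0.40.

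**Figure D3:**
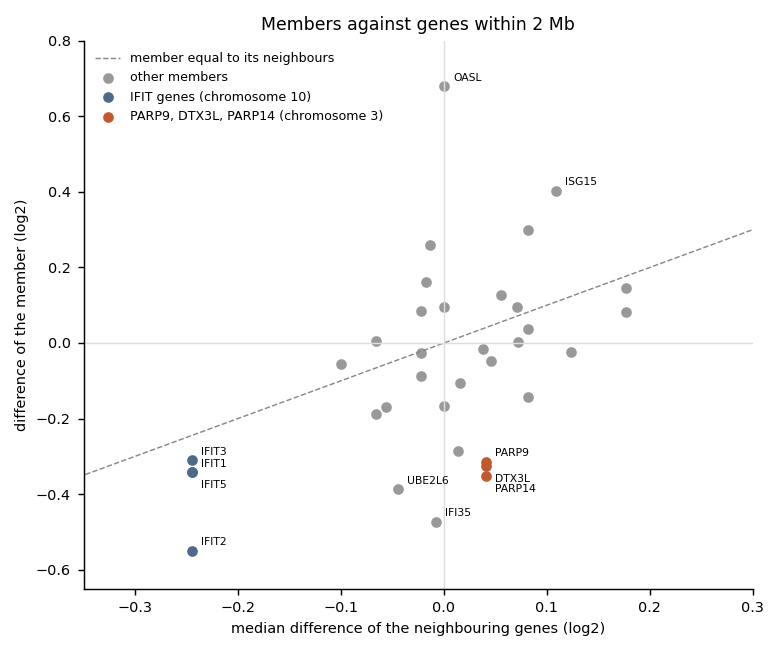
Each of the 35 genes kept by the filter and listed on a main chromosome, as its own log2 difference (vertical axis) against the median difference of its neighbours within 2 Mb (horizontal axis), TPC1-INAVA minus TPC1-Vector. The IFIT genes sit at the left, where the neighbour median is -0.24, whereas PARP9, PARP14 and DTX3L sit near 0.04 on the horizontal axis and between -0.31 and -0.35 on the vertical axis. The dashed line marks a gene equal to its neighbours, and the titles and axes call the chosen genes members.

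Of the 35 genes with neighbours on a main chromosome, 24 were below their neighbours within 2 Mb and 11 above. No such count was made over all genes, so there is no background against which to read the 24 and 11. Within 2 Mb the IFIT genes have the same neighbours, as do PARP9 and DTX3L, so these are not 35 independent values. The median of a gene's difference minus that of its neighbours was -0.07 within 2 Mb, and it was -0.11 within 1 Mb and -0.02 within 5 Mb. IFIT1, IFIT3 and IFIT5 were below their neighbours within 2 Mb but above them within 5 Mb. Neighbour medians ran from -0.24 around the IFIT genes to 0.18 around the IFITM genes.

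Genes with and without a core in the promoter were then set side by side. Of the chosen genes kept by the filter with a matched window, 18 had a core and 13 had none. OASL and IFIT2, the highest and the lowest of the chosen genes kept, had no matched window and are in neither group. The median log2 difference was -0.07 with a core (6 higher, 12 lower) and -0.02 without (6 higher, 7 lower). The lower genes with a core included IFIT1, IFIT3 and IFIT5 on chromosome 10 and PARP9, DTX3L and PARP14 on chromosome 3. PARP9 and DTX3L hold the same core, so these counts are not of independent genes. IFI35 and UBE2L6, both lower by more than 0.32, had no GAAANNGAAA match in their windows. Among all 375 genes kept by the filter whose window held the core, 193 were higher and 182 lower, with a median of 0.01. Of them, 13 were past 1.5-fold higher and 3 past 1.5-fold lower (4.27%). Among the 9463 without it, 4772 were higher and 4691 lower, the median was 0.0019 and 3.10% were past 1.5-fold. A match describes letters in a window and not binding.

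**Figure D4:**
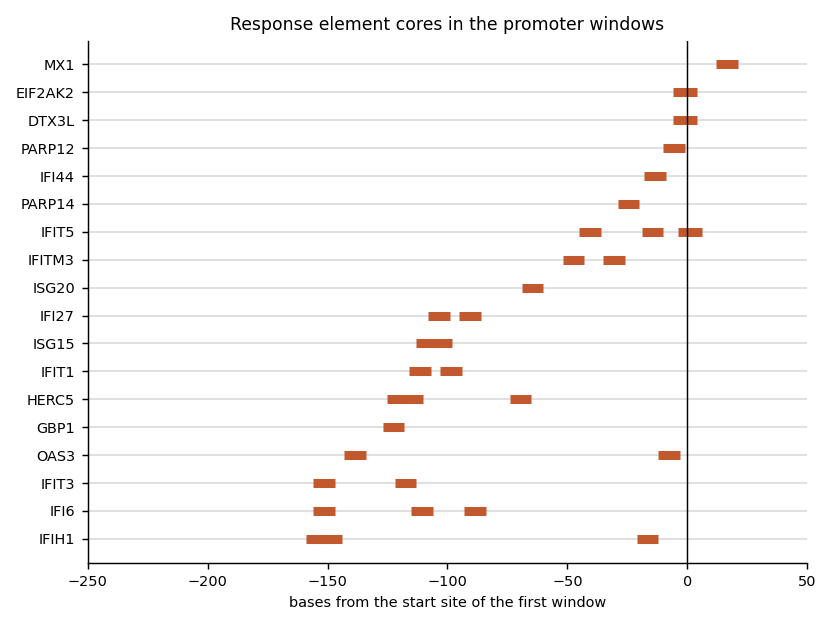
Positions of the GAAANNGAAA core (orange bars), as bases from the transcript start, in the first RefSeq window of the 18 listed genes that held one there; genes are ordered by the core farthest upstream and overlapping cores merge. The bars run from IFIH1, with a core at -159, to MX1, with a core at 12 to 21, and those of DTX3L, EIF2AK2 and IFIT5 cross the start.

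Genes upstream of the response were compared next. Of 44 ligands, receptors and signalling genes, 29 were listed and kept, none was past 1.5-fold in either direction, and the median log2 difference was -0.02. Of 10 interferon genes, IFNE alone had a row, at 0.474 and 0.661 FPKM (0.25). The 6 receptor chains ranged from -0.45 to -0.02, with a median of -0.22, and IFNGR1 (14.5 and 14.3 FPKM) was the nearest to equality. IFNAR1, IFNAR2 and IL10RB lie side by side on chromosome 21 (33229895 to 33359822), where 18 neighbours of IFNAR2 had a median of 0.04, and IFNGR2 is listed on an alternate contig of the same chromosome. The chains included IFNAR1, at 15.5 and 13.3 FPKM (-0.21), and IFNAR2, at 12.7 and 12.4 FPKM (-0.03), the chains of the type I receptor. JAK1 was at 36.0 and 36.1 FPKM (0.0023) and TYK2 at 18.6 and 20.5 FPKM (0.14). The median was 0.14 for the kinases and STATs and -0.10 for the other IRF factors. It was -0.02 for genes of nucleic acid sensing and 0.03 for negative regulators. Past 0.32, TICAM1 (0.46) and SOCS1 (0.34) were higher (6.90% of the 29, beside 7.69% of all genes). TLR3 (-0.50), IL10RB (-0.45) and TMEM173 (-0.38) were lower (10.3%, beside 6.74%).

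Of 56 further interferon-stimulated genes outside the chosen set, 41 were listed and kept, with a median log2 difference of -0.02, 20 higher and 21 lower. CD274, which encodes the immune checkpoint ligand PD-L1, was the only one past 1.5-fold, at 1.09 FPKM in TPC1-Vector against 2.12 FPKM in TPC1-INAVA (0.72). Past 0.32, 6 of the 41 were higher (14.6%, beside 7.69% of all genes), namely CD274, SLFN5, ZNFX1, HELZ2, APOBEC3C and LAP3. APOL6 (-0.42) alone was lower (2.44%, beside 6.74%). The difference between these counts and those of the chosen genes was not tested. ZNFX1 (0.50) and HELZ2 (0.46) lie on chromosome 20 among neighbours with medians of 0.31 and 0.34.

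**Figure D5:**
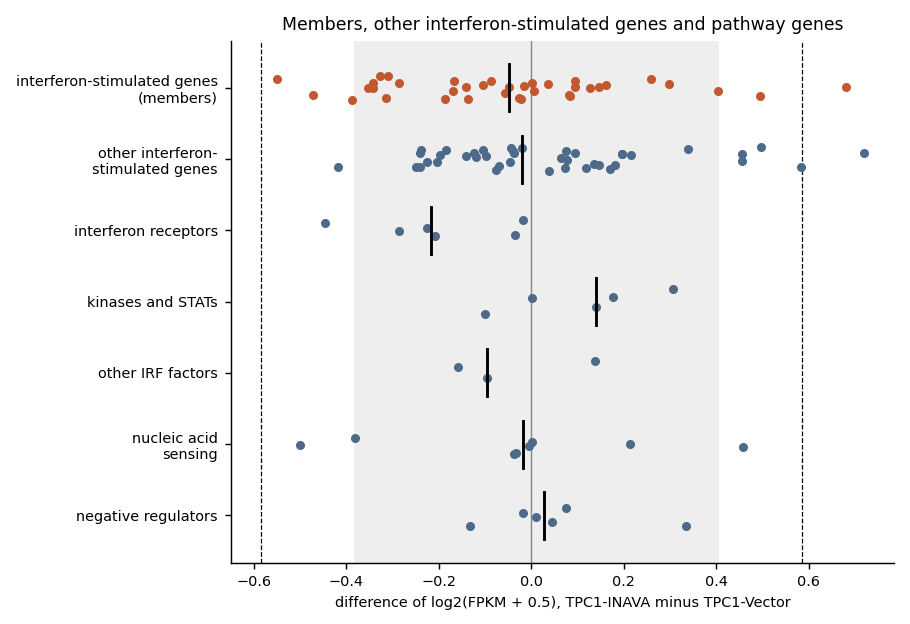
Log2 differences (TPC1-INAVA minus TPC1-Vector) of the chosen genes (orange), the further interferon-stimulated genes and 5 groups of pathway genes (blue) kept by the filter, with 1 point per gene and a black bar at each median. The shaded band is the 5th to 95th percentile of all genes and dashed lines mark 1.5-fold. The medians are -0.05 for the chosen genes, -0.02 for the further genes and -0.22 for the receptors, whose points lie between -0.45 and -0.02. The medians of the other pathway groups lie between -0.10 and 0.14.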

How the data were processed

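RNA of 4 libraries, 2 of TPC1-Vector and 2 of TPC1-INAVA, was sequenced. The authors deposited 1 FPKM value per gene and group, with a log2 ratio and p- and q-values of their own that were not used. The submitters' processing notes name CASAVA, Cufflinks 2.1.1, Cuffdiff and hg38. The study's methods and the labels name different library kits and HiSeq models. Depth per library is unknown, so no counting error is given. FPKM values of low genes are the least precise, and 2612 rows shared a listed position with another row.

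Differences were taken on the log2(FPKM + 0.5) scale, where the change of a low gene is understated, for genes averaging 0.5 FPKM or more. A gene past 1.5-fold was called, with no test. Every listed member is named. Of the pathway genes and the further interferon-stimulated genes, those past 1.5-fold and a few fixed genes, among them IFNAR1, IFNAR2, JAK1 and TYK2, were to be named (1 is not reported here), and other genes of these lists were chosen after their values were seen. Members and lists were chosen with earlier results of these data known. Neighbours were genes averaging 1 FPKM or more within 2 Mb on either side, without the members, and genes on alternate contigs were given none. RefSeq promoter windows (GRCh38.p14) were scanned on both strands. The alternatives were pseudocounts of 0.1, 1 and none, other filters, scalings, folds and distances, a longer core and a second motif. The calculation was tested on simulated data. Python 3.11.15, numpy 2.4.6, pandas 2.3.3 and matplotlib 3.10.9 were used.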

Additional observations from a re-analysis of the deposited data

How the results depend on the processing

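Past 1.5-fold, the chosen genes had 1 higher and 0 lower. With a pseudocount of 0.1 there were 2 higher (OASL and IFI27) and 1 lower (IFIT2), and without one, an alternative added after seeing the data, the counts were also 2 and 1. The further interferon-stimulated genes had 2 higher under both. Of all genes, 376 were higher and 289 lower with 0.1, and 411 and 329 without a pseudocount, beside 276 and 179. With a pseudocount of 1, the chosen genes and the further genes each had 0 higher. With no filter, the chosen genes had 2 higher (OASL and GBP2) and the further genes 1 lower, and at a mean of at least 1 FPKM the chosen genes had 0 higher. At 2-fold, the chosen and the further genes had 0 higher, and all genes had 75 higher and 30 lower. Past 0.32 on the log2 scale, the counts higher and lower were 3 and 7 of the chosen, 2 and 3 of the pathway, 6 and 1 of the further and 946 and 829 of all genes. The OAS median of 0.17 became -0.14 at a mean of at least 1 FPKM, where OAS3 alone was left, and 0.30 without a pseudocount. The median of the other IFI genes, 0.12, became -0.025 once IFI27 was filtered out. With the longer core, 35.1% of the chosen genes and 0.293% of all genes had a match. Of 37 single genes, IRF1 alone changed sign with median-of-ratios scaling (from 0.0022 to -0.0016), and none moved by 0.1 or more under either scaling. OASL ranged from 0.50 to 1.07, IFI27 from 0.34 to 0.89, OAS1 from 0.20 to 0.55 and IFIT2 from -0.65 to -0.48 over all settings. No paired analysis was possible because the table holds 1 value per group. For the same reason, leaving out each replicate and the replicate block were not run. The spread between libraries is unknown, so no difference given here has been compared with it, and the levels under 1 FPKM are the least certain.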
